A study of Homo sapiens with 24 samples.

Results

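The genes described here sense RNA and DNA that appear in the cytosol, or act directly beside those sensors, in SKBR3 cells pushed into therapy-induced senescence (TIS). They were chosen by name for their place in the pathway: DDX58 (also called RIGI), IFIH1, DHX58, MAVS, CGAS, STING1, TBK1, TREX1, ADAR and EIF2AK2. The choice was made with earlier results of these data known, so counts of members called are descriptions only. Of these 10 genes, 9 were measured among the 14493 genes of the count table, and CGAS was not analysed here. Each gene listed in the table had at least 1 read in each of the 24 libraries, and all 9 measured genes passed the low-count filter in each comparison.

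SKBR3 is an established human breast cancer line that carries an amplified ERBB2 (HER2) gene. RNA sequencing covered 8 groups of 3 libraries: untreated day-0 cells, untreated day-7 cells, and cells exposed to ND-646 (an acetyl-CoA carboxylase inhibitor, 250 nmol/L), TVB-3166 (a fatty acid synthase inhibitor, 250 nmol/L), bleomycin (a DNA-breaking agent, 10 umol/L), doxorubicin (a topoisomerase II poison, 10 nmol/L), alisertib (an Aurora A kinase inhibitor, 500 nmol/L) or palbociclib (a CDK4/6 inhibitor, spelled Palboclib in the labels, 1 umol/L). All 6 drugs were renewed on day 3 and the cells were collected on day 7. The labels give a refeed on day 3 for the drug groups and none for the untreated groups. If untreated day-7 cells had no refeed, drug and refeed cannot be told apart in comparisons with them. A single line, a single dose of each drug and a single treated time point were available. The labels number the replicates without saying that they came from separate cultures, so that p-values measure the spread between these libraries, which may be technical.

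Cells carry receptors that recognise nucleic acids in the wrong place. RIG-I (DDX58) and MDA5 (IFIH1) bind double-stranded RNA and signal through the mitochondrial adaptor MAVS, LGP2 (DHX58) modulates both, and cGAS makes a cyclic dinucleotide on cytosolic DNA that activates STING (STING1) on the endoplasmic reticulum. Both arms meet at the kinase TBK1, which phosphorylates IRF3 and opens the interferon program. The exonuclease TREX1 degrades cytosolic DNA and the editing enzyme ADAR alters self double-stranded RNA, and each thereby limits signalling, whereas PKR (EIF2AK2) binds double-stranded RNA and shuts down translation. Several of these genes are themselves interferon targets, and a cGAS-STING response to chromatin fragments is a known feature of senescent cells.

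Promoter letters are shown for the members whose RefSeq window, from 250 bases before to 50 bases after the annotated start in GRCh38.p14, held a motif bound by interferon regulatory factors. The letters searched on both strands were GAAANNGAAA (the core of the interferon-stimulated response element, ISRE), GAAANGAAA (the same repeat with a 1-base spacer) and TTCNNNGAA (the gamma-activated site, GAS). Capitals mark the matches, and each stretch is written 5′ to 3′ on the strand of its gene, which is the minus strand for all of these.
DDX58, chr9:32526366-32526424: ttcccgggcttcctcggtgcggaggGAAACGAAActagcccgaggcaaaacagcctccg
EIF2AK2, chr2:37156961-37157011: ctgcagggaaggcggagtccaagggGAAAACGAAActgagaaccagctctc
IFIH1, chr2:162318671-162318868: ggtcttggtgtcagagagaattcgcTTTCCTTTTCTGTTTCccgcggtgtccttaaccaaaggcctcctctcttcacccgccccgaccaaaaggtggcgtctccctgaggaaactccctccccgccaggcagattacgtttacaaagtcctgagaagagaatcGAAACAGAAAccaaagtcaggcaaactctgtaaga

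The ISRE core stood in the windows of 2 of the 7 members with a RefSeq window, IFIH1 and EIF2AK2, and in those of 4.38% of all 27305 genes. IFIH1 held 3 matches, of which 2 overlap on the opposite strand, at -159 to -150 and -153 to -144 from the start, and the last lies at -21 to -12. EIF2AK2 held 1 match, which spans the start itself at -6 to 4. The 1-base spacer form was found in DDX58 alone, at -203 to -195, and in 3.87% of all genes. None of the 9 windows held the GAS letters, which occur in those of 9.38% of all genes, and the windows of MAVS, TBK1, TREX1 and ADAR held no match to any of the motifs. A match describes letters only and is not evidence of binding, and no match says only that these letters are not in this window.

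Library totals ran from 29405121 to 44316330 counts. Levels are given as CPM, counts scaled to the size of each library after TMM correction for differences in RNA composition. In a bulk sample fewer cells expressing a gene and less RNA per cell cannot be told apart. The first ND-646 library stood apart, with a TMM factor of 0.791, the lowest of all, and with the lowest level of TBK1, ADAR and EIF2AK2 among the 24 libraries. Its counts differed from those of the other 2 ND-646 libraries by a chi-square per degree of freedom of 146 and 159, against 13.4 between those 2. The first untreated day-0 library stood apart in the same way, by 171 and 172 against 18.3 between the others, with a TMM factor of 0.895, and it is part of the reference of each comparison with day-0. Fold changes of members under ND-646 are therefore also given without the first ND-646 library, and calls that changed without the first day-0 library are named at the gene. The 5 epithelial markers KRT8, KRT18, KRT19, EPCAM and ERBB2 summed to between 9542 and 19873 CPM, and of 7 markers of immune, stromal and endothelial cells COL1A1 alone was measured, at 6.43 to 15.3 CPM. Against day-0 cells KRT8 and KRT19 fell under each drug, KRT18 under all but ND-646 (log2 -0.56, not called), and ERBB2 and EPCAM were called under none. Against untreated day-7 cells fewer of the 5 markers fell under most drugs. There 0 fell in palbociclib, 1 in ND-646, 1 in doxorubicin, 2 in alisertib, 2 in TVB-3166 (where 1 rose) and 3 in bleomycin. COL1A1 fell in bleomycin (-0.49), doxorubicin (-0.68) and palbociclib (-0.54) against day-0 cells, and in the same drugs against day-7 cells (-0.48, -0.67 and -0.54). The part of these changes in the values below was not tested. A gene was called when its Benjamini-Hochberg adjusted p in edgeR's quasi-likelihood test, adjusted over all genes tested, was under 0.05. All comparisons with untreated day-0 cells share those 3 libraries.

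Against untreated day-0 cells, 32 of the 54 combinations of a member and a drug were called, 28 higher and 4 lower. Under TVB-3166 7 of the 9 members rose and 0 fell, where 27.4% of all genes rose and 27.7% fell. Under bleomycin 6 rose and 0 fell, against 24.1% and 25.3% of all genes. Under doxorubicin 5 rose and 0 fell, against 23.7% and 24.8%, and under ND-646 4 rose and 0 fell, against 19.1% and 18.8%. The 2 cell cycle inhibitors gave mixed directions. Under alisertib 3 rose and 1 fell (17.7% and 19.6% of all genes), and under palbociclib 3 rose and 3 fell (26.0% and 27.2%). The median log2 fold change over the 9 members was 0.49 in ND-646, 0.45 in TVB-3166, 0.41 in bleomycin, 0.27 in doxorubicin, 0.03 in alisertib and 0.20 in palbociclib, while that of all genes lay between -0.01 and 0.02 in these comparisons.

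Fewer members passed a rule on size. At a fold of at least 2 with an adjusted p under 0.05, 2 members rose in ND-646 (10.5% of all genes; 8.95% fell), 2 in TVB-3166 (10.7%; 6.69% fell), 3 in bleomycin (11.1%; 7.19% fell) and 2 in doxorubicin (9.67%; 2.85% fell), 1 rose in alisertib (6.06%; 1.38% fell), and 1 rose and 1 fell in palbociclib (10.4% and 6.09%). DHX58 was among them in each case. With the same fold and an unadjusted p under 0.05 the member counts were the same, where 11.4% of all genes rose and 9.29% fell in ND-646, 10.9% and 6.75% in TVB-3166, 11.5% and 7.30% in bleomycin, 10.0% and 2.90% in doxorubicin, 6.47% and 1.44% in alisertib, and 10.5% and 6.15% in palbociclib.

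Measured against untreated day-7 cells, which share the time in culture, 5 members rose under ND-646 (17.2% of all genes rose, 17.1% fell), 6 under TVB-3166 (25.4% and 26.1%), 7 under bleomycin (22.4% and 23.2%), 7 under doxorubicin (21.9% and 21.5%) and 3 under alisertib (9.55% and 9.49%), with 0 falls under each of these. Under palbociclib 2 rose and 2 fell (22.0% and 22.9%). These comparisons share the day-7 libraries, whose labels, unlike those of the drug groups, name no refeed.

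**Figure D1:**
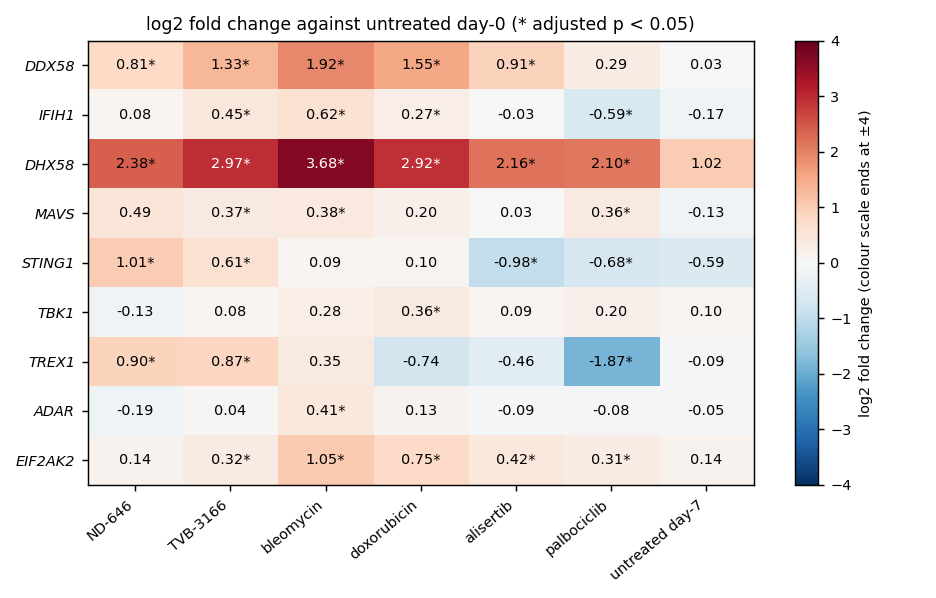
Log2 fold change of each measured sensing gene (rows) against untreated day-0 cells for the 6 drugs and untreated day-7 cells (columns), with 3 libraries a group; red is higher, blue is lower, and an asterisk marks an adjusted p under 0.05 in edgeR. DHX58 is red and marked under all 6 drugs, whereas STING1 and TREX1 run from red under ND-646 (1.01 and 0.90) to blue under palbociclib (-0.68 and -1.87).

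Time in culture alone called none of the members. Between untreated day-7 and untreated day-0 cells, edgeR called 0 of 9 in either direction, where 0.389% of all genes rose and 0.198% fell, DESeq2 also called 0, and 2 of 9 had an unadjusted p under 0.05, as did 23.9% of all genes. Those were DHX58, with a log2 fold change of 1.02 ± 0.33 (SE, adjusted p = 0.118), and STING1, with -0.59 ± 0.20 (adjusted p = 0.128). At a fold of at least 2, 0 passed with an adjusted p under 0.05 (0.169% of all genes rose and 0.0293% fell) and 1, DHX58, with an unadjusted p under 0.05 (1.66% and 0.330%). For both genes all day-7 libraries lay on the same side of all day-0 libraries, and their drug values are therefore given below against both untreated groups.

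DHX58 (LGP2; GRCh37 chr17:40253422-40264732, minus strand), the regulator of the other RNA helicases, showed the widest range. Its level was 0.381, 0.831 and 0.651 CPM in untreated day-0 cells and 1.13, 1.45 and 1.16 CPM in untreated day-7 cells. It was 8.27, 6.39 and 8.96 CPM in bleomycin TIS cells, 4.45, 4.24 and 5.71 CPM in TVB-3166 TIS cells, and 4.79, 4.33 and 4.77 CPM in doxorubicin TIS cells. The remaining libraries read 2.34, 3.36 and 4.0 CPM under ND-646, 2.01, 2.77 and 3.47 CPM under alisertib, and 2.14, 2.70 and 3.10 CPM under palbociclib. No drug library overlapped an untreated library.

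DHX58 rose under all 6 drugs, by 12.8-fold in bleomycin (log2 3.68 ± 0.31, SE; adjusted p = 4.25e-05), 7.83-fold in TVB-3166 (2.97 ± 0.29), 7.59-fold in doxorubicin (2.92 ± 0.28), 5.22-fold in ND-646 (2.38 ± 0.37), 4.48-fold in alisertib (2.16 ± 0.33) and 4.30-fold in palbociclib (2.1 ± 0.32). Against untreated day-7 cells the log2 values were smaller and still called under each drug, from 1.10 in palbociclib (adjusted p = 0.00365) to 2.68 in bleomycin (adjusted p = 5.16e-05). These calls held when any single library was left out of the comparisons with day-0, and ND-646 gave 2.58 (adjusted p = 0.000197) without its first library. Its counts were low, 15 to 26 reads in the day-0 libraries against 200 to 294 reads under bleomycin, so the day-0 level, and with it the size of each fold change, is the least precise part. In a fit over all 24 libraries bleomycin exceeded TVB-3166 (difference 0.71 log2, adjusted p = 0.0248) and palbociclib exceeded untreated day-7 (1.09, adjusted p = 0.00212), and the neighbouring steps among TVB-3166, doxorubicin, ND-646, alisertib and palbociclib did not pass the test.

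DDX58 (RIG-I; GRCh37 chr9:32455300-32526206, minus strand), the sensor of short double-stranded RNA ends, rose under 5 of the 6 drugs. It read 3.92, 4.35 and 3.40 CPM in untreated day-0 cells and 3.77, 4.26 and 3.8 CPM in untreated day-7 cells. Bleomycin gave 16.6, 10.4 and 17.1 CPM, doxorubicin 11.6, 13.0 and 9.37 CPM, and TVB-3166 11.3, 7.75 and 10.3 CPM. ND-646 gave 7.61, 7.33 and 5.65 CPM, alisertib 7.23, 8.22 and 6.49 CPM, and palbociclib 4.05, 5.40 and 4.81 CPM. Palbociclib alone overlapped the untreated libraries.

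The rise of DDX58 was 3.79-fold in bleomycin (log2 1.92 ± 0.22, adjusted p = 0.000164), 2.94-fold in doxorubicin (1.55 ± 0.18, adjusted p = 0.000112), 2.52-fold in TVB-3166 (1.33 ± 0.19, adjusted p = 0.000141), 1.88-fold in alisertib (0.91 ± 0.17, adjusted p = 0.00289) and 1.76-fold in ND-646 (0.81 ± 0.22, adjusted p = 0.0194). Under palbociclib the log2 value was 0.29 (95% interval -0.14 to 0.71, adjusted p = 0.228). Palbociclib lay below ND-646, its neighbour in the order of levels, by 0.53 log2 (adjusted p = 0.0331). The ND-646 call did not hold without untreated day-0 replicate 1 (0.81, adjusted p = 0.0558), without untreated day-0 replicate 3 (0.72, adjusted p = 0.0800) or without ND-646 replicate 2 (0.75, adjusted p = 0.0699), and it held without the first ND-646 library (0.74, adjusted p = 0.0157). Against untreated day-7 cells DDX58 was called under the same 5 drugs, from 0.80 in ND-646 (adjusted p = 0.0159) to 1.91 in bleomycin (adjusted p = 0.000202). Palbociclib was not called there (0.28, adjusted p = 0.216), and no library was left out of these fits. The annotation lifted to GRCh37 places a second protein-coding gene, not in the table, over 70886 bases of DDX58 on the same strand.

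IFIH1 (MDA5; GRCh37 chr2:163123584-163175194, minus strand), the sensor of long double-stranded RNA, moved less and in both directions. It read 47.1, 45.5 and 52.1 CPM in untreated day-0 cells, 85.3, 63.6 and 73.0 CPM under bleomycin, and 73.8, 61.9 and 61.0 CPM under TVB-3166. Under palbociclib it read 35.6, 29.3 and 30.7 CPM, below every other library of the series. Doxorubicin gave 59.0, 60.9 and 52.7 CPM, and the untreated day-7, ND-646 and alisertib libraries lay between 40.3 and 56.1 CPM.

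IFIH1 rose 1.54-fold in bleomycin (log2 0.62 ± 0.12, adjusted p = 0.00259) and 1.36-fold in TVB-3166 (0.45 ± 0.11, adjusted p = 0.00382), and fell 1.51-fold in palbociclib (-0.59 ± 0.11, adjusted p = 0.00111). The fall was called against untreated day-7 cells too (-0.40, adjusted p = 0.00604). So were rises in bleomycin (0.81, adjusted p = 0.000670), TVB-3166 (0.63, adjusted p = 0.000228) and doxorubicin (0.46, adjusted p = 0.00146), in fits from which no library was left out. All untreated day-7 libraries lay below the day-0 libraries, without a call (-0.17, adjusted p = 0.298). In the fit over all libraries palbociclib was 1.21 log2 below bleomycin (adjusted p = 9.1e-08) and 0.57 below alisertib. Against day-0 cells the doxorubicin rise of 0.27 (adjusted p = 0.0405) was lost without untreated day-0 replicate 1 (0.24, adjusted p = 0.0721), without untreated day-0 replicate 2 (0.23, adjusted p = 0.134), without doxorubicin replicate 1 (0.24, adjusted p = 0.153) and without doxorubicin replicate 2 (0.22, adjusted p = 0.125). It was also lost in the fit over all 24 libraries (0.25, adjusted p = 0.0669) and without a low-count filter (0.25, adjusted p = 0.0548). ND-646 (0.08, 95% interval -0.24 to 0.39; 0.0068 without its first library) and alisertib (-0.03, 95% interval -0.23 to 0.18) were not called.

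**Figure D2:**
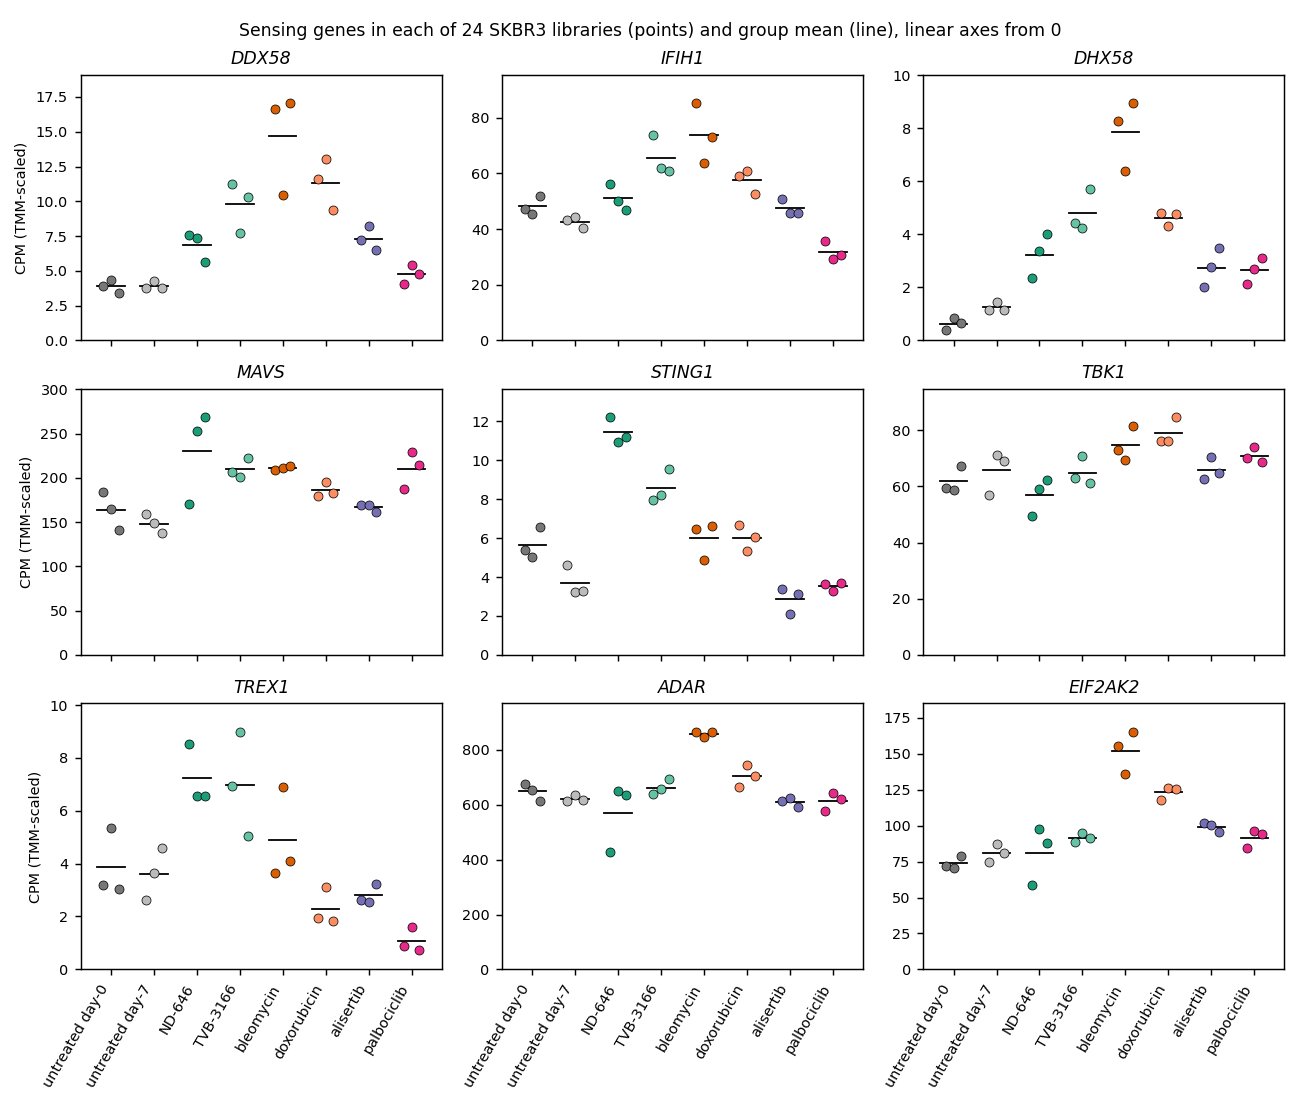
TMM-scaled CPM (vertical axes, linear and starting at 0) of the 9 measured members in each of the 8 groups; points are the 3 libraries and the line is their mean. DHX58 libraries run from 0.381 CPM in untreated day-0 cells to 8.96 CPM under bleomycin, IFIH1 is lowest under palbociclib, STING1 and TREX1 are highest under ND-646 or TVB-3166, and 1 of the 3 ND-646 points sits low for MAVS, TBK1, ADAR and EIF2AK2.

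MAVS (GRCh37 chr20:3827446-3856770, plus strand), the adaptor on which both helicase sensors act, varied within a 1.55-fold range of group means. Untreated day-0 cells averaged 163 ± 21.6 CPM (SD, n = 3) and untreated day-7 cells 148 ± 10.7 CPM. It averaged 210 ± 11.1 CPM under TVB-3166, 211 ± 2.21 CPM under bleomycin and 210 ± 21.4 CPM under palbociclib. The ND-646 libraries split, at 170 CPM in the first and 253 and 268 CPM in the others.

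MAVS rose 1.29-fold in TVB-3166 (log2 0.37 ± 0.11, adjusted p = 0.0146), 1.30-fold in bleomycin (0.38 ± 0.11, adjusted p = 0.0202) and 1.29-fold in palbociclib (0.36 ± 0.11, adjusted p = 0.0199). Each of these calls was lost in some fits that left out a library, which also leaves fewer libraries to test. The TVB-3166 call was lost without untreated day-0 replicate 3 (0.27, adjusted p = 0.0517) and without TVB-3166 replicate 3 (0.33, adjusted p = 0.0642), and the bleomycin call without untreated day-0 replicate 2 (0.38, adjusted p = 0.0604), untreated day-0 replicate 3 (0.29, adjusted p = 0.0780) or bleomycin replicate 3 (0.38, adjusted p = 0.0602). The palbociclib call was lost without untreated day-0 replicate 3 (0.27, adjusted p = 0.0692), palbociclib replicate 2 (0.30, adjusted p = 0.0828) or palbociclib replicate 3 (0.35, adjusted p = 0.0633). ND-646 gave 0.49 (adjusted p = 0.0838), which became 0.67 (adjusted p = 0.00145) without its first library and 0.50 (adjusted p = 0.00176) in the fit over all 24 libraries. Doxorubicin gave 0.20 (adjusted p = 0.144), which became 0.29 (adjusted p = 0.0313) without untreated day-0 replicate 1. Measured against untreated day-7 cells, MAVS was called higher under ND-646 (0.64), TVB-3166 (0.51), bleomycin (0.53), doxorubicin (0.35) and palbociclib (0.51).

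STING1 (GRCh37 chr5:138855118-138862520, minus strand), the adaptor of the DNA arm, was highest under the 2 lipogenesis inhibitors and lowest under the 2 cell cycle inhibitors. It read 5.39, 5.02 and 6.57 CPM in untreated day-0 cells and 4.61, 3.24 and 3.30 CPM in untreated day-7 cells. ND-646 gave 12.2, 10.9 and 11.2 CPM and TVB-3166 gave 7.96, 8.22 and 9.57 CPM, above all untreated libraries. Alisertib gave 3.36, 2.12 and 3.15 CPM and palbociclib 3.62, 3.30 and 3.70 CPM, below all day-0 libraries but within or beside the day-7 range. Bleomycin, at 6.49, 4.85 and 6.61 CPM, and doxorubicin, at 6.66, 5.36 and 6.07 CPM, overlapped the day-0 libraries.

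Against day-0 cells STING1 rose 2.01-fold in ND-646 (log2 1.01 ± 0.19, adjusted p = 0.00340) and 1.52-fold in TVB-3166 (0.61 ± 0.17, adjusted p = 0.00975), and fell 1.97-fold in alisertib (-0.98 ± 0.21, adjusted p = 0.00588) and 1.60-fold in palbociclib (-0.68 ± 0.18, adjusted p = 0.0102). The TVB-3166 call was lost without TVB-3166 replicate 3 (0.52, adjusted p = 0.0511), and the ND-646 value was 0.96 (adjusted p = 0.00149) without its first library. The choice of reference changed which drugs were called. Against untreated day-7 cells STING1 rose 3.06-fold in ND-646 (1.62, adjusted p = 0.000683), 2.31-fold in TVB-3166 (1.21), 1.64-fold in doxorubicin (0.72, adjusted p = 0.00839) and 1.62-fold in bleomycin (0.70, adjusted p = 0.0267), and the falls in alisertib (-0.36, adjusted p = 0.288) and palbociclib (-0.06, adjusted p = 0.826) were no longer called. Between drugs, ND-646 exceeded bleomycin by 0.94 log2 (adjusted p = 0.00044), doxorubicin by 0.93 (adjusted p = 0.00026), palbociclib by 1.70 and alisertib by 2.0 in the fit over all libraries.

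**Figure D3:**
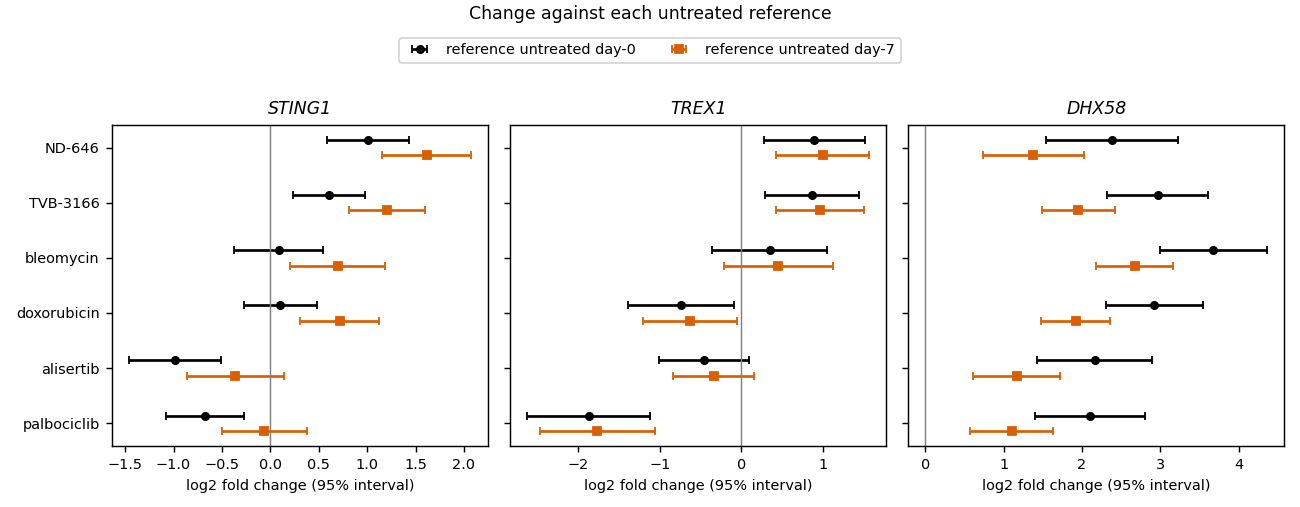
Log2 fold change (horizontal axis) of STING1, TREX1 and DHX58 under each of the 6 drugs against untreated day-0 (black circles) and untreated day-7 cells (orange squares), with 95% intervals from edgeR, 3 libraries a group. The STING1 values lie further right against day-7 cells, so that alisertib moves from -0.98 to -0.36 and bleomycin from 0.09 to 0.70, the DHX58 values lie further left and stay above 0, and the TREX1 values move by little.

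TBK1 (GRCh37 chr12:64845870-64895894, plus strand), the kinase shared by both arms, changed least, with group means within a 1.39-fold range. Its libraries ran from 49.5 CPM in the first ND-646 library to 84.6 CPM under doxorubicin, and it averaged 61.9 ± 4.84 CPM in untreated day-0 cells. TBK1 rose in doxorubicin (79.0 ± 4.82 CPM; 1.29-fold, log2 0.36 ± 0.09, adjusted p = 0.00940), a call that held against untreated day-7 cells (0.29, adjusted p = 0.0298) and with each library left out. Bleomycin gave 0.28 (adjusted p = 0.0547), which passed without untreated day-0 replicate 3 (0.35, adjusted p = 0.0470) or bleomycin replicate 2 (0.32, adjusted p = 0.0498). With no library left out, the bleomycin value passed in the fit over all 24 libraries (0.27, adjusted p = 0.0310) and with the replicate number as a block (0.28, adjusted p = 0.0225). It also passed with at least 10 counts required in every library (0.30, adjusted p = 0.0408). Palbociclib gave 0.20 (adjusted p = 0.0889), which passed without untreated day-0 replicate 3 (0.26, adjusted p = 0.0382). ND-646 was not called with its first library or without it (-0.031, adjusted p = 0.826). Of 28 pairs of groups, 6 differed for TBK1.

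TREX1 (GRCh37 chr3:48507210-48509044, plus strand), the exonuclease that clears cytosolic DNA, had the widest range of group means after DHX58. Unlike DHX58, it was called in both directions. It read 3.20, 5.34 and 3.05 CPM in untreated day-0 cells and 2.64, 3.65 and 4.57 CPM in untreated day-7 cells. ND-646 gave 8.54, 6.58 and 6.56 CPM, above all untreated libraries, and TVB-3166 gave 6.92, 8.98 and 5.06 CPM, of which the last lies within the day-0 range. Palbociclib gave 0.868, 1.59 and 0.716 CPM, from 24 to 50 reads, the 3 lowest libraries of the series. Doxorubicin read 1.94, 3.11 and 1.81 CPM, alisertib 2.64, 2.55 and 3.24 CPM, and bleomycin 3.63, 6.90 and 4.11 CPM.

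TREX1 rose 1.86-fold in ND-646 (log2 0.90 ± 0.27, adjusted p = 0.0299) and 1.82-fold in TVB-3166 (0.87 ± 0.26, adjusted p = 0.0162), and fell 3.66-fold in palbociclib (-1.87 ± 0.34, adjusted p = 0.000993). The fall held with each library left out and against untreated day-7 cells (-1.76, adjusted p = 0.00113). Palbociclib was also below its neighbour doxorubicin by 1.11 log2 (adjusted p = 0.0322) and below ND-646 by 2.78 (adjusted p = 1.6e-06). The ND-646 rise was lost without untreated day-0 replicate 1 (0.77, adjusted p = 0.105), untreated day-0 replicate 3 (0.75, adjusted p = 0.111), ND-646 replicate 2 (0.95, adjusted p = 0.0559) or ND-646 replicate 3 (0.96, adjusted p = 0.0501), and held without its first library (0.77, adjusted p = 0.0320). The TVB-3166 rise was lost without untreated day-0 replicate 3 (0.73, adjusted p = 0.0576) or TVB-3166 replicate 2 (0.64, adjusted p = 0.0858). Both rises were called against untreated day-7 cells, in ND-646 (1.00, adjusted p = 0.0160) and in TVB-3166 (0.96, adjusted p = 0.00680), in fits from which no library was left out. Doxorubicin gave -0.74 (adjusted p = 0.0576), which passed in DESeq2 (-0.74, adjusted p = 0.0346) and without untreated day-0 replicate 1 (-0.87, adjusted p = 0.0361), untreated day-0 replicate 3 (-0.89, adjusted p = 0.0430) or doxorubicin replicate 2 (-1.03, adjusted p = 0.0232).

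The TREX1 counts carry a limit of annotation. All 1835 bases of TREX1 lie within the annotated span of ATRIP (GRCh37 chr3:48488114-48509044) on the same strand, so reads of TREX1 and ATRIP, a partner of the checkpoint kinase ATR, could be assigned to either. ATRIP averaged 18.4 ± 1.92 CPM in untreated day-0 cells and, against them, fell under each drug, from 2.38-fold in ND-646 (log2 -1.25 ± 0.19, adjusted p = 0.00127) to 1.29-fold in alisertib (-0.37 ± 0.13, adjusted p = 0.0485). Against untreated day-7 cells, which lay below day-0 cells without a call (-0.37, adjusted p = 0.119), ATRIP fell in ND-646 (-0.87, adjusted p = 0.00700) and bleomycin (-0.67, adjusted p = 0.00568) and was not called under the other drugs. Against day-0 cells TREX1 was called higher and ATRIP lower in ND-646 and in TVB-3166 (ATRIP -1.02 ± 0.35, adjusted p = 0.0276), and both were called lower in palbociclib (ATRIP -0.71 ± 0.16, adjusted p = 0.00312). Under TVB-3166 ATRIP read 13.0, 3.35 and 10.9 CPM, so that its lowest library is the one with the highest TREX1 level, and against day-7 cells its value there was -0.63 (adjusted p = 0.144). The part of the assignment of reads in the TREX1 values was not tested.

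ADAR (GRCh37 chr1:154554171-154600489, minus strand), the adenosine deaminase that edits self double-stranded RNA, rose under bleomycin and was not called under the other drugs. It averaged 649 ± 30.9 CPM in untreated day-0 cells and read 865, 847 and 866 CPM under bleomycin, above every other library of the series (1.33-fold, log2 0.41 ± 0.11, adjusted p = 0.0106). The call held against untreated day-7 cells (0.48, adjusted p = 0.00181) and with each library left out. Bleomycin exceeded TVB-3166 by 0.37 (adjusted p = 0.016), alisertib by 0.50 (adjusted p = 0.0016) and palbociclib by 0.48 (adjusted p = 0.0024) in the fit over all libraries, and its difference from doxorubicin was 0.29 (adjusted p = 0.0869). The first ND-646 library read 429 CPM, against 650 and 635 CPM in the others, and without it the ND-646 value was -0.015 (adjusted p = 0.923).

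EIF2AK2 (PKR; GRCh37 chr2:37326353-37384665, minus strand), the kinase that halts translation on double-stranded RNA, rose under 5 of the 6 drugs. It read 72.1, 70.6 and 78.7 CPM in untreated day-0 cells, 156, 136 and 165 CPM under bleomycin, and 118, 126 and 126 CPM under doxorubicin. Alisertib gave 102, 100.3 and 95.6 CPM, TVB-3166 88.4, 95 and 91.8 CPM, and palbociclib 84.3, 96.2 and 94 CPM. All of these lay above the day-0 libraries, while untreated day-7 cells (74.6, 87.5 and 80.8 CPM) reached into the palbociclib range. ND-646 gave 58.8, 97.5 and 87.6 CPM, which span the day-0 libraries.

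The rise of EIF2AK2 was 2.07-fold in bleomycin (log2 1.05 ± 0.11, adjusted p = 9.21e-05), 1.68-fold in doxorubicin (0.75 ± 0.09, adjusted p = 0.000122), 1.34-fold in alisertib (0.42 ± 0.08, adjusted p = 0.00365), 1.25-fold in TVB-3166 (0.32 ± 0.09, adjusted p = 0.0109) and 1.24-fold in palbociclib (0.31 ± 0.09, adjusted p = 0.0146). The TVB-3166 call was lost without TVB-3166 replicate 2 (0.29, adjusted p = 0.0519), and the palbociclib call without palbociclib replicate 2 (0.28, adjusted p = 0.0603) or palbociclib replicate 3 (0.29, adjusted p = 0.0556). Neither was called against untreated day-7 cells (0.19 in each, adjusted p = 0.0741 and 0.0924). The ND-646 value of 0.14 (adjusted p = 0.618) became 0.33 (adjusted p = 0.0271) without its first library.

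Compared per length of the canonical transcript, the members spanned a wide range of levels in untreated day-0 cells. Each length is that of a single annotated transcript, and whether its whole length is used and counted in these cells was not tested. ADAR was at 98.2 ± 4.7 CPM per kb, TBK1 at 20.5 ± 1.6, MAVS at 13.9 ± 1.8, IFIH1 at 13.5 ± 0.96 and EIF2AK2 at 7.40 ± 0.43. TREX1 was at 3.53 ± 1.2 CPM per kb, STING1 at 2.61 ± 0.37, DDX58 at 0.840 ± 0.10 and DHX58 at 0.240 ± 0.087. The same order of the lowest members did not hold under the drugs. Under bleomycin DDX58 reached 3.18 ± 0.80 and DHX58 3.04 ± 0.51 CPM per kb, beside 2.76 ± 0.45 for STING1, and under palbociclib TREX1 (0.965 ± 0.42) lay beside DHX58 (1.02 ± 0.19) and DDX58 (1.03 ± 0.15).

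**Figure D4:**
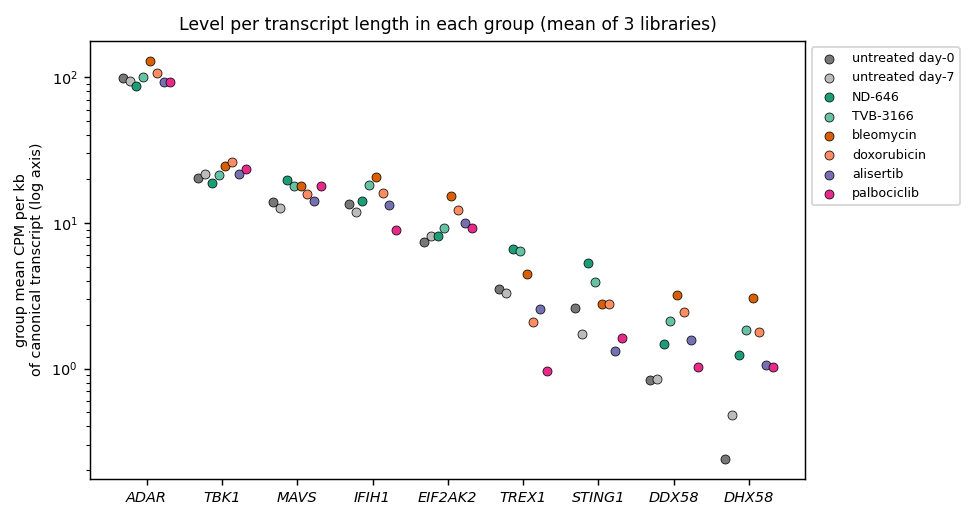
Group mean of TMM-scaled CPM per kb of canonical transcript (vertical axis, logarithmic) for the 9 measured members (horizontal axis); each point is the mean of 3 libraries and colours give the 8 groups. ADAR lies between 86.5 and 130 CPM per kb in all groups, and the points of TREX1, STING1, DDX58 and DHX58 spread furthest between groups.

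The order of the 8 groups differed from member to member. Bleomycin was the highest group for DDX58, IFIH1, DHX58, ADAR and EIF2AK2, ND-646 for MAVS, STING1 and TREX1, and doxorubicin for TBK1. The lowest group was untreated day-0 for DDX58, DHX58 and EIF2AK2, palbociclib for IFIH1 and TREX1, alisertib for STING1, ND-646 for TBK1 and ADAR, and untreated day-7 for MAVS. In the fit over all libraries the highest group differed from the next for DHX58 alone. The lowest group differed from the one above it for IFIH1 and TREX1 alone. The low place of ND-646 for ADAR rests on its first library, since the other 2 lie above the day-7, alisertib and palbociclib means. The highest group mean exceeded the lowest by 12.7-fold for DHX58, 6.83-fold for TREX1, 3.97-fold for STING1, 3.78-fold for DDX58, 2.32-fold for IFIH1 and 2.06-fold for EIF2AK2. Of all 28 pairs of groups, 21 differed for DHX58, 20 for DDX58, 20 for STING1, 17 for IFIH1 and 17 for TREX1. For EIF2AK2 14 differed, for MAVS 13, for ADAR 7 and for TBK1 6. Single contrasts of the same fit called between 3.13% and 56.0% of all genes. Neighbours were picked as the groups closest in mean in these same data, so few could be expected to differ, and 6 of 63 neighbouring pairs did. The neighbouring pairs that differed and are not yet named were IFIH1, higher in untreated day-7 than in palbociclib cells (0.41 log2, adjusted p = 0.00664), and STING1, higher in TVB-3166 than in doxorubicin cells (0.51 log2, adjusted p = 0.0314).

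The 2 lipogenesis inhibitors, given at the same dose and time, were also compared directly. Between TVB-3166 and ND-646 TIS cells edgeR called 0 of the 9 members in either direction, where 0.520% of all genes were higher and 0.198% lower, DESeq2 called 0, and 3 of 9 had an unadjusted p under 0.05, as did 15.1% of all genes. Those were DDX58 (0.52, 95% interval 0.03 to 1.00, adjusted p = 0.301), IFIH1 (0.37, 0.06 to 0.67, adjusted p = 0.260) and STING1 (-0.41, -0.76 to -0.05, adjusted p = 0.271). Same-numbered libraries of these 2 groups deviated together, and with the replicate number as a block 0 members were called, the smallest adjusted p being 0.138 for IFIH1. Without the first ND-646 library IFIH1 was called higher (0.44, adjusted p = 0.0221) and MAVS lower (-0.31, adjusted p = 0.0381) under TVB-3166.

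The genes whose levels followed each member most closely were read from Pearson correlations over the 24 libraries and 14069 genes, given as descriptions, since libraries of a group share their treatment. DDX58 ran with OAS2 (r = 0.937), IFI6 (0.934) and ISG15 (0.930), and DHX58 with PARP12 (0.960), PARP14 (0.950) and DTX3L (0.947). IFIH1 ran with OAS3 (0.905), IRF7 (0.903) and DLL4 (0.877), and EIF2AK2 with ANKRD13A (0.908), HERC6 (0.907) and CREB5 (0.902). STING1 ran with HRH1 (0.893), GLG1 (0.879) and SGPL1 (0.875), and TREX1 with PCIF1 (0.923), PACSIN3 (0.914) and GRK2 (0.911). OAS2, IFI6, ISG15, OAS3, IRF7 and HERC6 are known interferon-stimulated genes, and nothing is said here on whether the other genes named are. Among the members themselves r ran from -0.42 for TBK1 and TREX1 to 0.862 for DDX58 and DHX58.

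The lists of further pathway genes are described by counts, to be read beside the shares of all genes called against day-0 given above, 17.7% to 27.4% higher and 18.8% to 27.7% lower depending on the drug. Counts against day-7 cells are to be read beside the day-7 shares, 9.55% (alisertib) to 25.4% higher and 9.49% (alisertib) to 26.1% lower. Double-stranded RNA effectors are the enzymes and substrates that act beside PKR. Of 13 tested, 9 rose and 2 fell in ND-646 and in TVB-3166, 8 and 1 in bleomycin, 7 and 1 in doxorubicin, 5 and 2 in alisertib, and 6 and 2 in palbociclib. In bleomycin the largest changes were those of OAS2 (log2 5.90), OAS1 (4.18) and OAS3 (2.94), which make the activator of RNase L, and PPP1R15A (2.25), a subunit of the phosphatase that reverses PKR signalling. OAS2 averaged 0.728 ± 0.036 CPM in untreated day-0 cells and 43.7 ± 9.52 CPM under bleomycin. In palbociclib the largest were NLRP1 (2.43), an inflammasome sensor, OAS3 (-1.08), PPP1R15A (0.80) and OAS2 (0.77). Compared directly, OAS2 was higher under TVB-3166 than under ND-646 (1.64, adjusted p = 0.0404), the only call among the 13. In that comparison 0.520% of all genes were higher. The OAS2 value without the first ND-646 library is not given here. Against untreated day-7 cells 7 rose and 2 fell in ND-646, 9 and 3 in TVB-3166, 9 and 1 in bleomycin, 7 and 2 in doxorubicin, 5 and 2 in alisertib, and 2 and 3 in palbociclib. The median log2 fold change of the list against day-0 ran from 0.18 in alisertib to 0.85 in ND-646 and TVB-3166.

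The next list holds genes that keep self nucleic acids from being sensed. Of 13 tested, 0 rose and 7 fell in ND-646, 2 and 7 in TVB-3166, 4 and 6 in bleomycin, 2 and 5 in doxorubicin, 1 and 6 in alisertib, and 2 and 7 in palbociclib, with medians from -0.75 in ND-646 to -0.05 in alisertib. In ND-646 the largest falls were RNASEH2A (-2.21), a subunit of RNase H2, which removes ribonucleotides from DNA, SAMHD1 (-2.0), which degrades deoxynucleotides, DNMT1 (-1.93), the maintenance DNA methyltransferase, and RNASEH2C (-1.16), another subunit of RNase H2. RNASEH2A averaged 20.0 ± 1.44 CPM in untreated day-0 cells and 4.35 ± 1.35 CPM in ND-646 cells. In bleomycin RNASEH2A (-1.40), DNMT1 (-1.25) and RNASEH2C (-1.11) fell too, whereas SAMHD1 rose (0.99). With the day-7 reference 0 rose and 6 fell in ND-646, 1 and 7 in TVB-3166, 2 and 5 in bleomycin, 0 and 3 in doxorubicin, 0 and 1 in alisertib, and 1 and 6 in palbociclib. RNASEH2B and TRIM28, a corepressor that silences retroelements, were named after their values were seen and also fell under each drug against day-0.

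**Figure D5:**
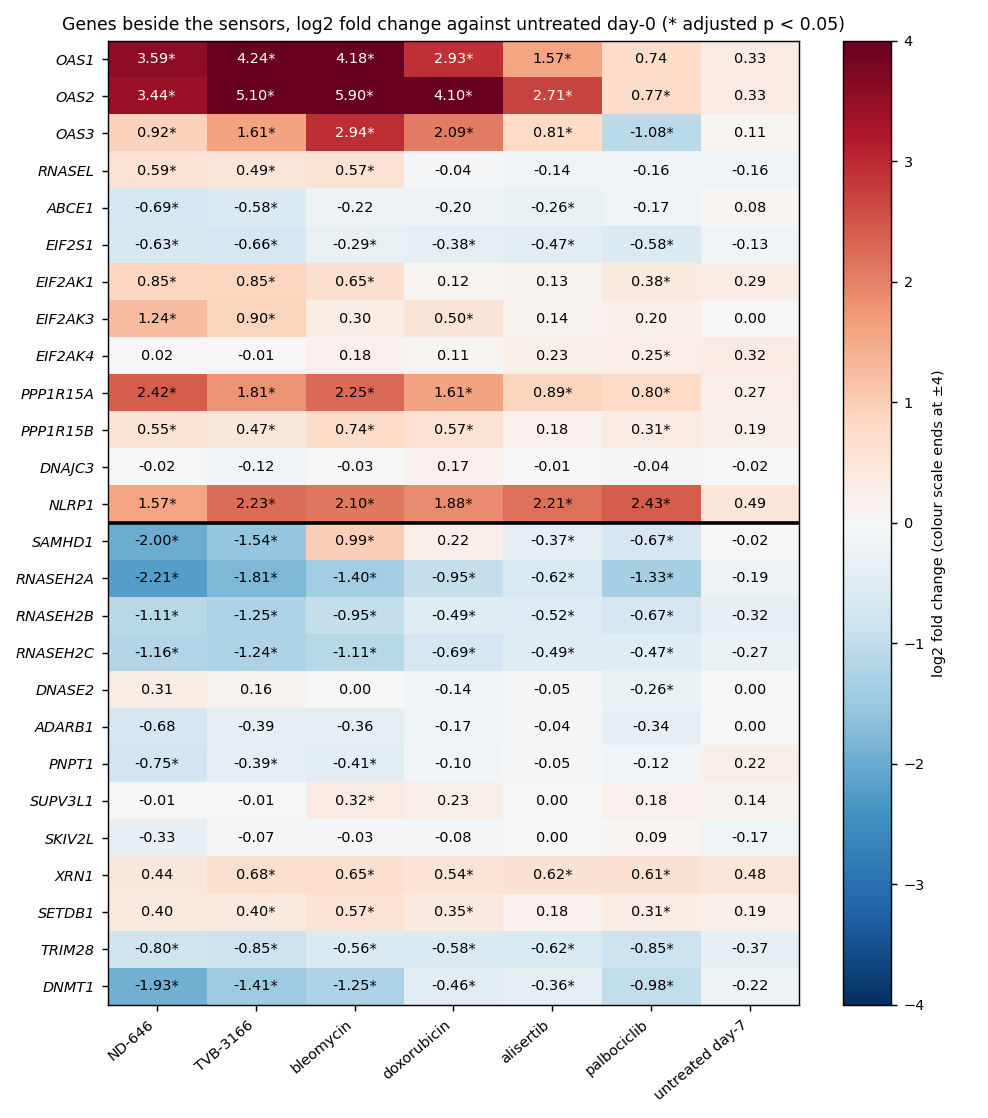
Log2 fold change against untreated day-0 cells of the double-stranded RNA effectors (above the black line) and of the genes that control self nucleic acids (below it) for the 6 drugs and untreated day-7 cells; red is higher, blue is lower, and an asterisk marks an adjusted p under 0.05 in edgeR. OAS1 and OAS2 are the deepest red rows, with 3.59 and 3.44 under ND-646, higher values under bleomycin, and 0.74 and 0.77 under palbociclib. Values past the end of the colour scale share its last colour. The RNASEH2A, RNASEH2B, RNASEH2C, TRIM28 and DNMT1 rows are blue and marked under each drug.

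Of 15 partners of the RNA sensors tested, 1 rose and 5 fell in ND-646, 2 and 5 in TVB-3166, 2 and 3 in bleomycin, 1 and 6 in doxorubicin, 0 and 5 in alisertib, and 2 and 5 in palbociclib, with medians between -0.20 and 0.09. When day-7 cells were the reference, 1 fell in alisertib and 3 to 5 under each of the other drugs, with 1 to 3 rises. In bleomycin ZNFX1 (1.33), a mitochondrial helicase that binds viral RNA, and RNF135 (0.87), the ligase that ubiquitinates RIG-I, rose, and DHX9 (-1.06) and DHX15 (-0.86), both RNA helicases, fell. Partners of the DNA arm gave 2 rises and 0 falls in ND-646, 2 and 7 in TVB-3166, 3 and 4 in bleomycin, 3 and 3 in doxorubicin, 2 and 4 in alisertib, and 3 and 4 in palbociclib, of 11 tested, with medians between -0.28 and -0.09. Against day-7 cells 2 of these partners rose and 0 fell in ND-646, 2 and 3 in TVB-3166, 4 and 3 in bleomycin, 4 and 3 in doxorubicin, 1 and 2 in alisertib, and 3 and 2 in palbociclib. In bleomycin TRIM56 (2.18), a ubiquitin ligase of the pathway, and ABCC1 (0.58), an exporter of the cyclic dinucleotide, rose, and BANF1 (-0.79), which competes with cGAS for DNA, and ENPP1 (-0.76), which degrades the dinucleotide, fell.

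Among 18 genes of the signal relay downstream of both adaptors, 6 rose and 1 fell in ND-646, 7 and 3 in TVB-3166, 10 and 1 in bleomycin, 9 and 1 in doxorubicin, 4 and 1 in alisertib, and 6 and 4 in palbociclib, with medians from 0.07 in palbociclib to 0.35 in bleomycin. Against day-7 cells 6 rose and 0 fell in ND-646, 6 and 3 in TVB-3166, 9 and 0 in bleomycin, 10 and 1 in doxorubicin, 2 and 0 in alisertib, and 5 and 1 in palbociclib. In bleomycin the largest were IRF7 (2.03), an interferon regulatory factor, TNFAIP3 (2.01), a brake on NF-kappaB, OPTN (1.89), a TBK1 adaptor, and TBKBP1 (1.79), a TBK1-binding protein. In palbociclib TBKBP1 (1.76), IKBKB (1.05) and OPTN (0.92) rose and IRF7 fell (-1.09).

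The interferon response list holds 24 genes, of which 13 were measured. IFIT1, IFIT2, IFIT3, IFI44, IFI44L, RSAD2 and CXCL10 were among those not analysed here, so the counts cover only part of the list. Against day-0 cells the list gave 5 rises and 1 fall of 12 tested in ND-646, 6 and 0 of 13 in TVB-3166, 7 and 0 of 13 in bleomycin, 6 and 1 of 13 in doxorubicin, 4 and 0 of 12 in alisertib, and 4 and 3 of 13 in palbociclib, with medians from -0.07 in palbociclib to 0.74 in bleomycin. Against day-7 cells 6 rose and 1 fell in ND-646, 8 and 0 in TVB-3166, 8 and 0 in bleomycin, 8 and 1 in doxorubicin, 6 and 0 in alisertib, and 2 and 3 in palbociclib. In bleomycin MX1 (4.70), IFI6 (4.47), IRF9 (3.8) and ISG15 (2.70) rose most. In palbociclib STAT2 (1.14) and IRF9 (1.13), both transcription factors of the interferon response, rose, and SOCS1 (-1.17) and USP18 (-1.10), both brakes on the receptor, fell. The receptor chains IFNAR1 and IFNAR2 passed the test under none of the drugs, with log2 values between -0.27 and 0.27, and the type I and III ligands of the list (IFNB1, IFNL1, IFNL2 and IFNL3) were not analysed here. None of these lists had a called member in untreated day-7 against untreated day-0 cells.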

How the data were processed

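Total RNA of 24 SKBR3 libraries was sequenced with a stranded TruSeq kit (mRNA per the labels, total RNA per the methods). Per the labels and the methods, the authors aligned reads with HISAT2 to GRCh37, assembled with StringTie and deposited 1 table of raw read counts per gene; counting settings and use of strand are not given in the sources used here. The counts were used as deposited.

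The main test was the quasi-likelihood test of edgeR (version 4.0.16, R version 4.3.3; filterByExpr, TMM, 2-sided, only the 2 groups compared), with Benjamini-Hochberg adjustment over all genes tested and a threshold of 0.05. The order of groups came from 1 fit over all 24 libraries with 28 contrasts. CPM used TMM-scaled totals over all libraries, and correlations log2 CPM with a prior count of 2. DESeq2 1.42.0 was an alternative. Totals of 29405121 to 44316330 set the precision, and members with under 30 reads in a library are the least certain.

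Groups were taken from sample titles. Replicates differed beyond sampling noise. Named genes were all members, at most 4 per list with the largest called change in the comparison described, the 3 closest genes of each member spanning at least 1 log2 unit, receptors and ligands, and genes overlapping a member. Members and lists were chosen with earlier results of these data known. Alternatives were RLE scaling, other low-count filters, all 24 libraries in 1 fit, the replicate block, fold rules, untreated day-7 cells as the reference, plain library size for levels, and leaving out each library. Same-numbered libraries deviated together between TVB-3166 and ND-646 (r from 0.213 to 0.380, from the numbers in the labels), and in each of the other 7 comparisons with day-0 at least 1 pair had r under 0.1. Promoters came from RefSeq (GRCh38.p14), and positions and lengths from GENCODE lifted to GRCh37.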

Additional observations from a re-analysis of the deposited data

How the results depend on the processing

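RLE scaling changed no call among the 72 fold changes tested, and other filters, DESeq2, the single fit and the block changed 1 to 4 each. With a fold of at least 2 and an adjusted p under 0.05, the members called higher were 2 in ND-646, 2 in TVB-3166, 3 in bleomycin, 2 in doxorubicin, 1 in alisertib and 1 in palbociclib, and those called lower 0 in alisertib and 1 in palbociclib. The fold rule with an unadjusted p gave the same counts of 2, 2, 3, 2, 1 and 1 higher and 0 and 1 lower, plus 1 higher in untreated day-7 cells. In doxorubicin 1 member, TREX1, was called lower with DESeq2 and with the replicate block (adjusted p = 0.0115), and the block moved no other count by over 1.5 times. Against untreated day-7 cells 0 were lower in alisertib, and the uncalled values of TBK1 in TVB-3166 (-0.011) and IFIH1 in alisertib (0.17) changed sign. With all 24 libraries in 1 fit, 1 member, IFIH1, was higher under TVB-3166 than under ND-646. Leaving out 1 library gave 2 to 6 members higher in ND-646, 5 to 7 in TVB-3166, 5 to 7 in bleomycin, 4 to 5 in doxorubicin, 3 in alisertib and 1 to 3 in palbociclib, 0 to 1 lower in doxorubicin, 0 to 1 higher and 0 to 1 lower in TVB-3166 against ND-646, and 4 to 11 neighbouring pairs that differed, 11 without ND-646 replicate 1. The ND-646 count was 2 without untreated day-0 replicate 1, untreated day-0 replicate 3 or ND-646 replicate 2 and 6 without ND-646 replicate 1. The palbociclib count was 1 without palbociclib replicate 2 or 3. In those fits 22 of the 32 calls were kept throughout, and 7 small uncalled values changed sign: EIF2AK2 in ND-646 (-0.023 to 0.33), IFIH1 (-0.076 to 0.030) and MAVS (-0.067 to 0.14) in alisertib, TREX1 (-0.30 to 0.22) and DDX58 (-0.069 to 0.12) in untreated day-7 cells, and TREX1 (-0.26 to 0.14) and EIF2AK2 (-0.0083 to 0.33) in TVB-3166 against ND-646. The cause of these changes was not tested. List counts moved by over 1.5 times in 28 of 96 with the day-7 reference and in 1 each with RLE scaling and without a low-count filter, and leaving out 1 library moved 85 and kept 683. Depth limits DHX58 and TREX1 most, with lowest counts of 15 and 24 reads.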
